A study of Saccharomyces cerevisiae with 30 samples.

Results

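Strain YJS9 of the budding yeast Saccharomyces cerevisiae was compared with strain YJS6 after a shift to 37 °C, on the 2 of 30 arrays of the series that held RNA of YJS9 in one channel and RNA of YJS6 in the other. YJS9 was in channel 1 on array 1 and in channel 2 on array 2. The 4 arrays with YJS6 in both channels, called self arrays here, gave the background, and YKH101, YJS7 and YJS8 at 37 °C, compared with the same YJS6, served as neighbouring strains. Per the labels, the cultures of all these groups grew at 26 °C in CSM-Trp-His medium to an OD600 of about 0.8 and were then held at 37 °C for 45 min. The labels give the strain names but no genotypes, so no allele was assumed for any of them, nor do they tell if the arrays of a strain stem from separate cultures. The p-values therefore measure the spread between arrays, which may be technical.

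The series title names TFIID and SAGA. Both are large coactivator complexes that bring TBP, the TATA-binding protein, to promoters of RNA polymerase II. They share several TBP-associated factors (TAFs), and SAGA also acetylates and deubiquitinates histones. In yeast, SAGA-dependent transcription is best known at stress-induced and TATA-containing genes and TFIID-dependent transcription at ribosomal protein and other housekeeping genes. A shift to 37 °C is commonly used to inactivate temperature-sensitive proteins, and it also sets off a transient heat shock response in normal cells.

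Values are log2 ratios relative to the median spot of each array, so that 0 is the median transcript and 1 a doubling against it. The labels do not give the direction of the ratio. It was read as likely YJS9 over YJS6, because GCN5 in YKH101, at a log2 of -5.40, would otherwise be a very large excess in the test strain. That a loss of this size is likelier than an excess was assumed and not tested, and all signed values rest on this reading. The effect of a gene is the mean of its values on both YJS9 arrays, and its standard error (SE) comes from a limma model of 21 arrays that also holds a dye term. A gene was called higher or lower if its Benjamini-Hochberg adjusted p was under 0.05. The depth of a 2-colour array cannot be stated in counts. Array 1 carried 6253 and array 2 carried 6376 of 6400 spots with a value, and the number of arrays limits the precision.

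In YJS9, 2393 of 5420 tested genes (44.2%) passed, 1135 higher (20.9%) and 1258 lower (23.2%). Of these calls, 448 were higher by a log2 of at least 1 and 372 were lower by as much, and 85 were higher and 22 lower by at least 2. Without array 1 the count of calls was 1465, and without array 2 it was 1484. The 2 arrays, with opposite dyes, gave 4373 of 5438 genes (80.42%) the same sign, and as a description over genes, which are not independent, their values correlated with a Pearson r of 0.768. Of the called genes, 2379 had 1 sign on both arrays and 2046 (85.5%) lay outside the range of the 4 self arrays on both, against 2860 of all tested genes (52.8%). The calls were made from these same YJS9 arrays, so the selection itself raises the counts among called genes. Among the 6 pairs that can be made of the self arrays, the same model called 0 to 3 genes in 5 pairs (194 to 310 at an unadjusted p under 0.05) and 313 genes (5.69%) in the pair of self arrays 3 and 4. In YJS9 2799 genes had an unadjusted p under 0.05. That pair stands apart from the others, and genes named below whose self arrays 3 and 4 differ from 1 and 2 share this split.

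How the calls divided into higher and lower changed with the scale. The deposited medians of the YJS9 arrays were -0.446 and -0.569, a mean of -0.51, while those of the self arrays ran from -0.545 to 0.399. On the deposited scale, without centring, 190 genes were called higher and 1230 lower, so that 13.4% of the calls were higher, against 47.4% after centring. Of the genes called higher after centring, 0 were called lower as deposited, but 191 had a deposited log2 below 0. Whether the median transcript itself was lower in YJS9 was not measured, since no source used here states how the deposited values were normalized.

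**Figure D1:**
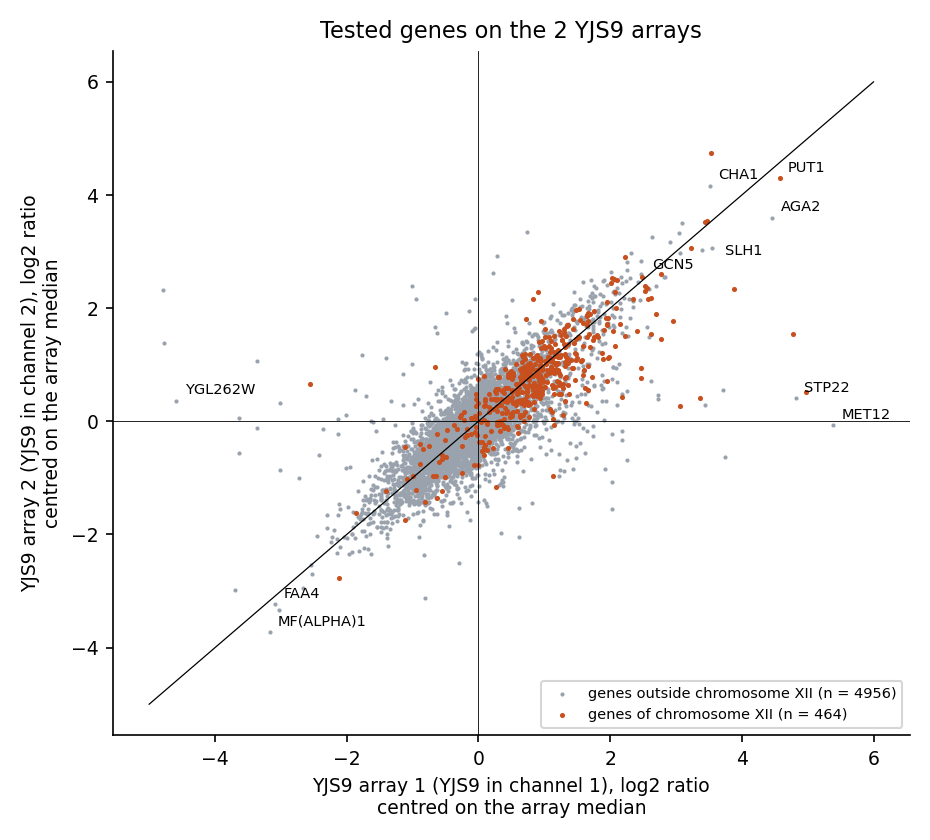
Centred log2 ratio of 5420 tested genes on YJS9 array 1 (horizontal axis) and YJS9 array 2 (vertical axis), with the 464 genes of chromosome XII in orange and the other 4956 in grey; the diagonal marks equal values. Most genes lie along the diagonal, the orange points lie mainly in the upper right quadrant, and a few genes such as MET12 and YGL262W are far from 0 on array 1 alone.

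Genes of chromosome XII were higher as a group. The 464 tested genes with a systematic name of this chromosome had a median log2 of 0.78 in YJS9, with 0.83 on array 1 and 0.72 on array 2, whereas the 4956 other genes had a median of -0.06. Of the chromosome XII genes, 309 (66.6%) were called higher and 25 (5.39%) lower, against 826 (16.7%) higher and 1233 (24.9%) lower among the others. In either direction 334 (72%) passed on chromosome XII and 2059 (41.5%) elsewhere. On both arrays 378 chromosome XII genes (81.5%) were above the array median, as were 1718 of the others (34.7%). Chromosome XII held 8.56% of the tested genes and 27.2% of the genes called higher. The difference between the medians, 0.85 on the log2 scale or 1.80-fold, does not depend on centring, because it is taken within an array.

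The shift was measured on each array. Chromosome XII minus the other genes was 0.89 and 0.80 on YJS9 arrays 1 and 2, and 0.04, 0.02, -0.03 and -0.05 on the YJS6 self arrays 1 to 4. The means were 0.849 ± 0.063 in YJS9 (SD, n = 2) and -0.007 ± 0.045 on the self arrays (SD, n = 4), and the groups did not overlap. An exact permutation test of 2 against 4 arrays gave a one-sided p of 0.0667, or 0.133 when doubled for 2 sides. The first is the smallest p-value that its 15 splits allow, so this design cannot reach 0.05. Chromosome XII was tested because it stood out among the chromosomes on these same arrays, so no conclusion is drawn from the p-values. On the 26 arrays other than those of YJS9, the repeated column described below left out, the difference ran from -0.06 to 0.45. The highest of these were 0.45 on replicate 1 of YKH100 and 0.30 on replicate 1 of YKH101, and replicate 2 of YKH101 was at 0.10. The 23 arrays of the remaining strains and self pairs lay between -0.06 and 0.17.

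**Figure D2:**
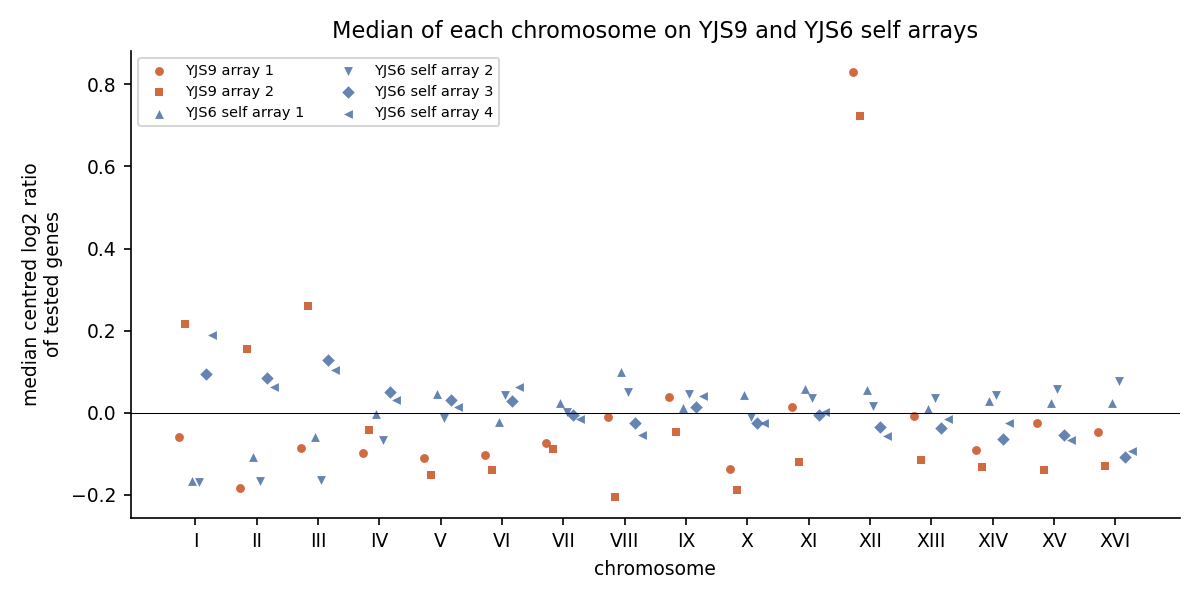
Median centred log2 ratio (vertical axis) of the tested genes of each of the 16 chromosomes (horizontal axis) on the 2 YJS9 arrays in orange and the 4 YJS6 self arrays in blue. Chromosome XII stands at 0.83 and 0.72 on the YJS9 arrays and between -0.06 and 0.05 on the self arrays.

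No other chromosome had a median near that of XII. Medians of the 15 others ran from -0.17 to 0.08, and the share of genes called higher from 12.6% to 24.1%. Chromosomes I, II and III differed between the YJS9 arrays, with medians of -0.06 and 0.22 for I, -0.18 and 0.16 for II, and -0.09 and 0.26 for III on arrays 1 and 2. The self arrays had medians from -0.17 to 0.19 for chromosome I, from -0.17 to 0.08 for II and from -0.16 to 0.13 for III.

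Along chromosome XII the shift was even. When the 464 genes were put in chromosomal order and cut into 16 sets of 29, the set medians ran from 0.67 to 0.93 in the first 15 sets and reached 0.50 in the last one, which ends at the right telomere. The left arm (58 genes, median 0.83) and the right arm (406 genes, median 0.78) had similar medians. The array lists its spots by chromosome. In the order of spot numbers, cut into 32 blocks of 200, chromosome XII took up 1 unbroken run of genes in each of 16 blocks, with medians from 0.48 to 1.03, against -0.13 to 0.03 for the other spots of the same blocks. Chromosome and place on the array are therefore partly bound together. The step fell at the borders of these runs. The last 5 gene spots before the run in each block, 80 spots in all, had a median of 0.01 in YJS9, and the first 5 of chromosome XII had 0.84. At the other border the last 5 of chromosome XII had 0.73 and the first 5 after it -0.12. On the self arrays, which have the same layout, the medians of these sets lay between -0.11 and 0.12. Copy number of chromosome XII in YJS9 was not measured, and its part in these ratios was not tested.

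**Figure D3:**
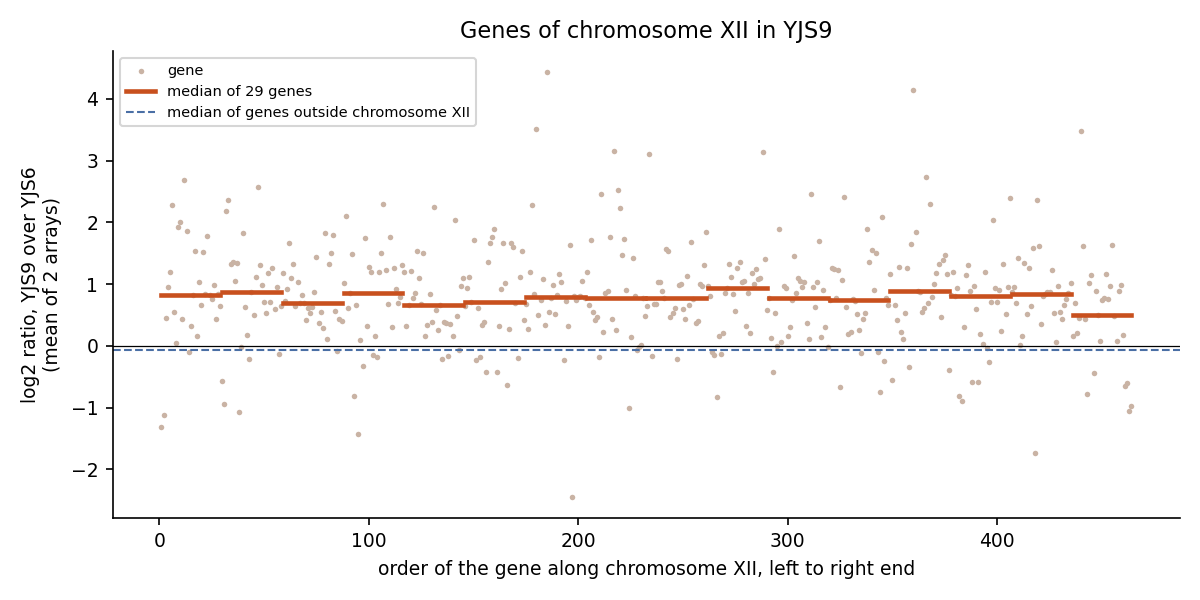
Effect in YJS9 as log2 ratio (vertical axis) of each tested gene of chromosome XII in its order from the left to the right end (horizontal axis), with the median of each set of 29 genes as an orange bar and the median of genes outside the chromosome as a dashed line. All 16 bars lie above the dashed line, from 0.50 to 0.93.

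Not all genes of the chromosome were raised. RNH203 (YLR154C), a subunit of RNase H2, was the lowest, with -2.11 and -2.77 on the YJS9 arrays against -0.09 to 0.13 on the self arrays (effect -2.44 ± 0.16, SE, n = 2, limma adjusted p = 5.51e-07). INA1 (YLR413W) was at -1.74, the a-factor barrier gene AFB1 (YLR040C) at -1.43 and the histone-binding HIF1 (YLL022C) at -1.08. YLL067C and YLL066C, subtelomeric genes at the left end with near-identical copies on other chromosomes, were at -1.32 and -1.12, and a spot cannot tell such copies apart.

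At the other end, among called genes whose smaller array value was at least 50% of the larger, 6 of the 12 highest lay on chromosome XII, as did 1 of the 12 lowest. PUT1 (YLR142W), the proline oxidase of proline breakdown, had 4.58 and 4.30 on the YJS9 arrays against 0.00, -0.13, 0.16 and -0.04 on the self arrays, a 21.6-fold difference (effect 4.44 ± 0.28, SE, n = 2, limma adjusted p = 3.70e-07). CIS1 (YLR346C) had 3.53 and 4.74, while the self arrays had -0.02, 0.10, -0.85 and -1.12. These genes exceeded the median of their chromosome by 3.65 and 3.36. TIS11 (YLR136C), which encodes an mRNA-binding protein made in iron deficiency, had 3.47 and 3.55, CAR2 (YLR438W), the ornithine transaminase, 3.43 and 3.51, the glycogen synthase gene GSY2 (YLR258W) 3.23 and 3.07, and NCW2 (YLR194C), a cell wall protein, 3.88 and 2.33. All of them lay above every self array, where NCW2 reached 1.08 and GSY2 0.91. Because the chromosome moved as a whole, counts or medians outside it are given beside most gene lists that have members there.

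Genes of the transcription machinery were next. GCN5 (YGR252W), the histone acetyltransferase of SAGA, had 3.39 and 3.03 on the YJS9 arrays, against 0.14, 0.24, -0.12 and 0.21 on the YJS6 self arrays. The YJS9 values lay far above all self arrays, a 9.26-fold difference (effect 3.21 ± 0.19, SE, n = 2, limma adjusted p = 2.45e-07). Its neighbour NOP19 (YGR251W), a ribosome assembly gene, was lower, with -1.76 and -1.56, while PUP2 on the other side was at 0.41. The 13 tested SAGA genes had 2 higher and 4 lower members (46.2%, against 44.2% of all genes) and a median of -0.04, and without SPT8, their member on chromosome XII, the median was -0.11.

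Within SAGA, HFI1 (YPL254W), a structural adaptor, had -0.94 and -1.04 on the YJS9 arrays and -0.44 to 0.09 on the self arrays. NGG1, the adaptor also called ADA3, was lower by -0.69 ± 0.16, the histone deubiquitinase UBP8 by -0.61 ± 0.15, and TRA1, which contacts activators, by -0.35 ± 0.13 (SE, n = 2 each). SPT8, a subunit that contacts TBP, was higher by 0.68 ± 0.17, below the median of its chromosome. SPT3 (YDR392W), another TBP-contacting subunit, had -0.21 and 0.13, within or just outside the self values of -0.07 to 0.29, and did not pass (limma adjusted p = 0.921).

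Among TFIID genes, TAF1 (YGR274C), the largest subunit and scaffold of TFIID, had 0.11 and 0.20 on the YJS9 arrays and -0.07, -0.35, -0.05 and 0.23 on the self arrays (effect 0.16 ± 0.15, SE, n = 2, limma adjusted p = 0.418). Of 14 tested TFIID genes, TAF8 (0.63) and TAF11 (0.53) were higher, TAF13 (-0.72) and TAF14 (-0.58) lower, and 10 did not pass. Among all tested genes 44.2% passed. TAF11 and TAF13 encode partners of a histone-fold pair. The list's median was 0.10, and it was -0.41 on the deposited scale.

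SLH1 (YGR271W), an RNA helicase of ribosome quality control whose gene lies 3 places before TAF1 on chromosome VII, had 3.55 and 3.06 on the YJS9 arrays, against 0.11, 0.23, 0.11 and 0.05 on the self arrays. This was a 9.88-fold difference (effect 3.30 ± 0.21, SE, n = 2, limma adjusted p = 4.04e-07). The genes between them on the chromosome were not tested. YTA7, on the other side of SLH1, had 0.20 and -0.32 and did not pass, and RTT102, beyond TAF1, was at 0.38.

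TBP itself, encoded by SPT15 (YER148W), had -0.06 and 0.18 on the YJS9 arrays and 0.09, -0.13, 0.02 and -0.08 on the self arrays, and did not pass (limma adjusted p = 0.775). Among 13 tested genes of TBP and its regulators, 5 were higher and 1 lower, against 20.9% higher and 23.2% lower of all genes. Their median was 0.44 (0.41 outside chromosome XII, -0.07 on the deposited scale). BDF1 (YLR399C), a bromodomain protein that binds TFIID and acetylated histone H4, had 2.61 and 2.17, against 0.41, 0.20, -0.24 and -0.25 on the self arrays (effect 2.39 ± 0.19, SE, n = 2, limma adjusted p = 1.85e-06). It lies on chromosome XII, where the neighbours SKI2 and DUS3 were at 0.95 and 0.87. Its paralogue BDF2 (YDL070W), on another chromosome, had 1.61 and 1.81 and exceeded self values of -0.24 to 0.37.

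Both subunits of NC2, a factor that binds TBP on DNA, were higher. BUR6 (YER159C) had 1.75 and 1.59 on the YJS9 arrays and at most 0.17 on a self array, and NCB2 (YDR397C) had 0.51 and 1.03, with at most 0.08. NHP6A, an HMG-box protein that bends DNA, was lower by -0.63 ± 0.13 (SE, n = 2). Among Mediator genes 5 of 25 were higher and 1 lower (24% called), and of 13 tested genes of TFIIH, TFIIE and TFIIF 4 were higher and 2 lower (46.2% called), against 44.2% of all genes. Each list had 1 higher member on chromosome XII.

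Mating genes gave some of the largest differences outside chromosome XII. The a-specific genes, expressed in cells of mating type a, had a median of 1.89, and 5 of 6 tested members were higher, against 20.9% of all genes. AGA2 (YGL032C), the binding subunit of a-agglutinin, had 4.47 and 3.60 on the YJS9 arrays, against -0.06, -0.05, 0.40 and 0.28 on the self arrays, a 16.4-fold difference (effect 4.03 ± 0.23, SE, n = 2, limma adjusted p = 2.14e-07). STE2 (YFL026W), the alpha-factor receptor, had 3.07 and 2.97, while every self value lay between -0.26 and -0.09. The a-factor gene MFA1 had 2.35 and 2.03, with self values from -0.49 to 0.71 (effect 2.19 ± 0.65, SE, n = 2, limma adjusted p = 0.0158). BAR1, the protease that degrades alpha-factor, had 2.73 and 0.47, which differ widely, and STE6, the a-factor exporter, 0.62 and 0.42. ASG7, at 0.16 and 0.11, did not pass.

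All 5 tested alpha-specific genes were lower, against 23.2% of all genes, with a median of -2.15. MF(ALPHA)1 (YPL187W), the main alpha-factor gene, had -3.17 and -3.72 on the YJS9 arrays, against 0.29, 0.45, -0.41 and 0.02 on the self arrays, a 10.9-fold lower level (effect -3.45 ± 0.21, SE, n = 2, limma adjusted p = 3.68e-07). MF(ALPHA)2 (YGL089C) had -3.70 and -2.98, with self values of -0.03, -0.19, 1.22 and 1.22. STE3 (YKL178C), the a-factor receptor, was at -2.15 ± 0.15, the alpha-agglutinin gene SAG1 at -1.52 ± 0.31 and AFB1 at -1.43 ± 0.18 (SE, n = 2 each). Both directions held on the deposited scale, with list medians of 1.39 and -2.66. In RNA of whole cultures, fewer cells of a type and less RNA per cell cannot be told apart.

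Haploid-specific and pheromone-response genes were mostly higher, with 12 of 23 higher, 2 lower and a median of 0.62 (0.60 outside chromosome XII). All tested genes had 20.9% higher and 23.2% lower. KAR4, a transcription factor of mating, had 2.55 and 1.67 on the YJS9 arrays and -0.14 to 0.11 on the self arrays. RME1, a repressor of meiosis, had 1.83 and 1.74, and FUS1, a cell fusion gene, 1.04 and 1.19, which the highest self value of 1.23 exceeded. HO (YDL227C), the endonuclease of mating-type switching, went the other way, with -2.23 and -2.14 against 0.24, 0.21, -0.86 and -1.12 on the self arrays. Of the G-protein genes that mark haploid cells, STE4 was lower (-0.66), STE18 higher (0.35), and GPA1 (0.36), as well as the kinase gene FUS3 (0.23), did not pass. Meiosis and sporulation genes had a median of 0.12, with 1 of 19 higher and 0 lower by limma (1 lower at an unadjusted p under 0.05), and 3 of their regulators, IME1 at 0.07, IME2 at -0.53 and NDT80 at 0.13, did not pass.

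**Figure D4:**
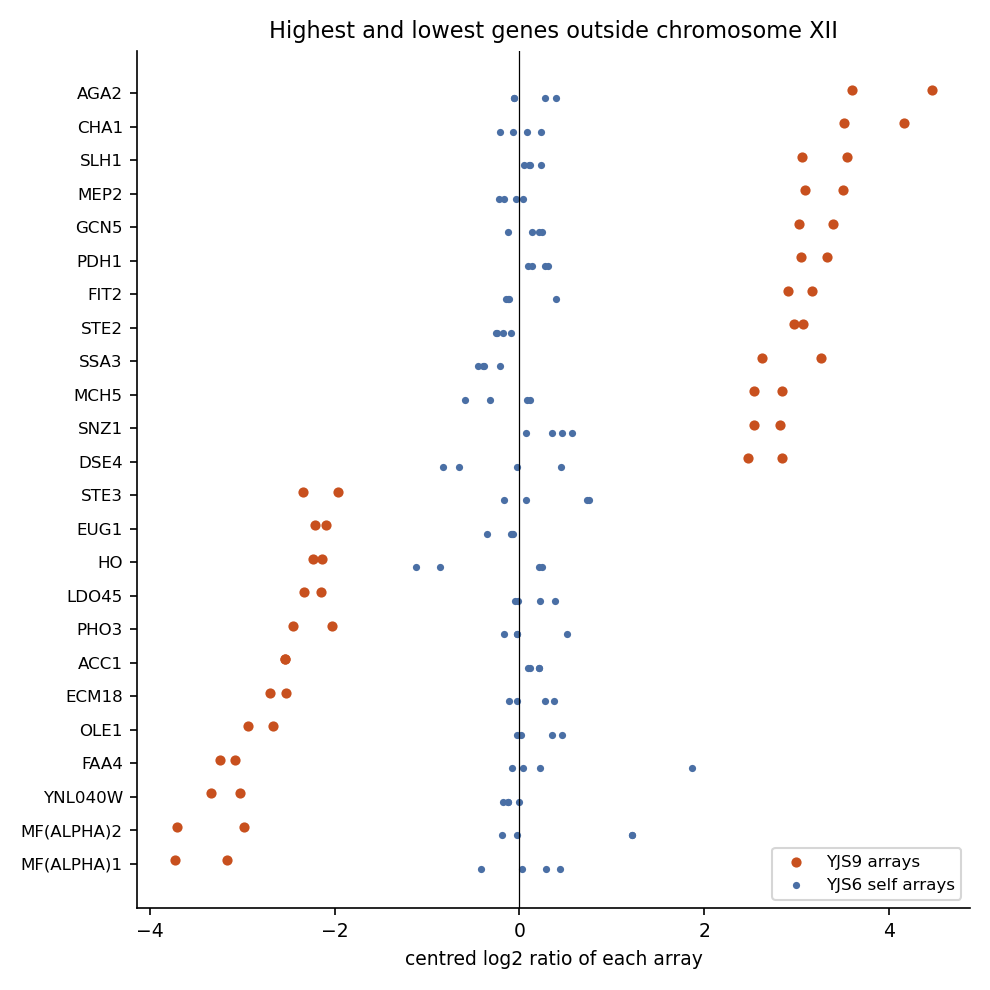
Centred log2 ratio (horizontal axis) of the 12 highest and 12 lowest called genes outside chromosome XII whose smaller array value was at least 50% of the larger, on the 2 YJS9 arrays (orange) and the 4 YJS6 self arrays (blue). For all 24 genes the YJS9 points lie outside the range of the blue points, in part because the genes were chosen for their large effects. The blue points spread most for FAA4, HO and MF(ALPHA)2.

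Genes of nitrogen use were higher without exception among those called, whereas all tested genes had 20.9% higher and 23.2% lower. In the list of nitrogen catabolite repressed genes, which cells turn on when preferred nitrogen sources are short, 12 of 23 were higher and 0 lower by limma, also 0 lower at an unadjusted p under 0.05, with a median of 0.69 both with and without the 2 members on chromosome XII. MEP2 (YNL142W), the ammonium permease and sensor, had 3.09 and 3.50 on the YJS9 arrays, against 0.04, -0.17, -0.03 and -0.21 on the self arrays. GAT1, a GATA activator of this group, had 2.10 and 2.37, the next proline enzyme PUT2 had 2.02 and 2.11, and the arginase gene CAR1 1.92 and 1.38. On the deposited scale 7 of the 23 remained called higher, and the median was 0.18.

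CHA1 (YCL064C), the serine and threonine deaminase, had 3.51 and 4.17 on the YJS9 arrays and -0.07, -0.21, 0.23 and 0.08 on the self arrays (effect 3.84 ± 0.17, SE, n = 2, limma adjusted p = 9.93e-08). Of 12 tested genes of serine synthesis and breakdown, 6 were higher and 0 lower by limma (0 lower at an unadjusted p under 0.05), with a median of 0.44 that was -0.06 on the deposited scale. Outside chromosome XII 4 of 10 were higher, against 16.7% of all tested genes there, and the median was 0.37. PDH1 (YPR002W), a methylcitrate dehydratase gene of propionate breakdown, had 3.05 and 3.33, above self values of 0.09 to 0.31. Amino acid biosynthesis genes as a list had 19 higher and 11 lower of 59, against 20.9% higher and 23.2% lower of all genes, and a median of 0.04. The aromatic aminotransferase gene ARO9 was their highest, with 2.42 and 2.47.

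Iron and sulfur genes were called higher in a larger share than the 20.9% of all genes. Of 27 iron regulon genes, 17 were higher and 1 lower, with a median of 0.88 (13 of 23 higher and a median of 0.61 outside chromosome XII). FIT2 (YOR382W), a cell wall mannoprotein of siderophore uptake, had 2.91 and 3.16 on the YJS9 arrays, against -0.11, -0.15, -0.12 and 0.40 on the self arrays. The multicopper oxidase FET3 had 2.05 and 2.01 and the siderophore transporter SIT1 1.88 and 2.09. FET4, the low-affinity iron transporter, was the lower member, at -0.96 and -0.97.

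Sulfur and methionine genes had 19 of 30 higher and 4 lower, with a median of 0.83 (14 of 25 higher, 4 lower and a median of 0.63 outside chromosome XII). STR3, a cystathionine beta-lyase gene, had 2.25 and 2.48 on the YJS9 arrays and -0.31 to 1.03 on the self arrays. The methionine synthase gene MET6 had 2.17 and 1.98, and SAM2, an S-adenosylmethionine synthetase gene with a close paralogue, 1.42 and 2.01. SAM4, an enzyme that recycles S-adenosylmethionine to methionine, was lower, with -1.88 and -2.06, against -0.11 to 0.03 on the self arrays. On the deposited scale the list kept a positive median, 0.32, with 5 members called higher and 3 lower.

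Of 25 genes in the list of the TCA and glyoxylate cycle, 13 were higher and 3 lower, with a median of 0.75 (9 of 21 higher, 3 lower and a median of 0.73 outside chromosome XII). All tested genes had 20.9% higher and 23.2% lower (16.7% and 24.9% outside chromosome XII). The list also holds 2 gluconeogenesis genes, FBP1, called higher with 2.18 and 0.425 on the YJS9 arrays, and PCK1, which did not pass. CIT2, the peroxisomal citrate synthase, had 2.25 and 2.82 on the YJS9 arrays and -0.32 to 0.28 on the self arrays. Its mitochondrial counterpart CIT1 had 2.05 and 2.50, the aconitase gene ACO1 (on chromosome XII) 2.53 and 2.30, and the isocitrate dehydrogenase genes IDH1 and IDH2 2.18 and 2.44, and 1.80 and 1.87. The lower members were MDH3 (-1.09), ICL1 (-1.0) and LPD1 (-0.99). Nuclear genes of the respiratory chain moved differently, with 7 higher and 15 lower of 35 and a median of -0.42 (6 higher and 14 lower of 32 outside chromosome XII). INH1, an inhibitor of the ATP synthase, had -1.65 and -2.0, and ATP17, a subunit of that enzyme, -1.99 and -1.51.

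General stress response genes had 27 of 48 higher and 3 lower, with a median of 0.87 both with and without the member on chromosome XII. GPH1, the glycogen phosphorylase, had 1.90 and 2.48 on the YJS9 arrays and -0.07 to 0.67 on the self arrays, TSL1, a subunit of trehalose synthase, 2.15 and 2.10, and the peroxiredoxin gene PRX1 1.85 and 2.25. SIP18, a desiccation gene of the same list, was lower, with -2.13 and -1.65, against self values of -0.83 to -0.17. Of 29 heat shock and chaperone genes, 11 were higher and 2 lower (7 and 2 of 25 outside chromosome XII), against 20.9% and 23.2% of all genes. Their median was 0.43, or -0.08 on the deposited scale. SSA3 (YBL075C), an inducible Hsp70, had 2.63 and 3.26, while HSP26 had 0.27 and 1.27, which the self range of -0.52 to 0.68 overlapped. The self arrays themselves had heat shock list medians from -0.90 to 0.06.

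Glycolysis and fermentation genes had 10 of 22 higher and 1 lower, with a median of 0.56 (8 of 20 higher and 0.55 outside chromosome XII, 0.05 on the deposited scale). For this and the next 2 lists, all tested genes had 20.9% higher and 23.2% lower (16.7% and 24.9% outside chromosome XII). PDC6, a minor pyruvate decarboxylase gene outside chromosome XII, had 1.13 and 2.07. Ergosterol synthesis genes had 12 of 24 higher and 4 lower, with a median of 0.48 that was -0.03 on the deposited scale. Outside chromosome XII 11 of 21 were higher, 4 lower and the median was 0.51. ERG25, ERG5 and ERG28 of the late pathway had 1.97 and 1.73, 1.62 and 1.84, and 1.42 and 1.99, while ERG26 was at -1.65 and -0.96. The seripauperins (PAU), a family of near-identical subtelomeric genes that spots may not tell apart, had 12 of 22 higher, 0 lower by limma (0 at an unadjusted p under 0.05) and a median of 0.59, which was 0.08 on the deposited scale, where none of the 22 was called. Outside chromosome XII 10 of 18 were higher, with the same median of 0.59.

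**Figure D5:**
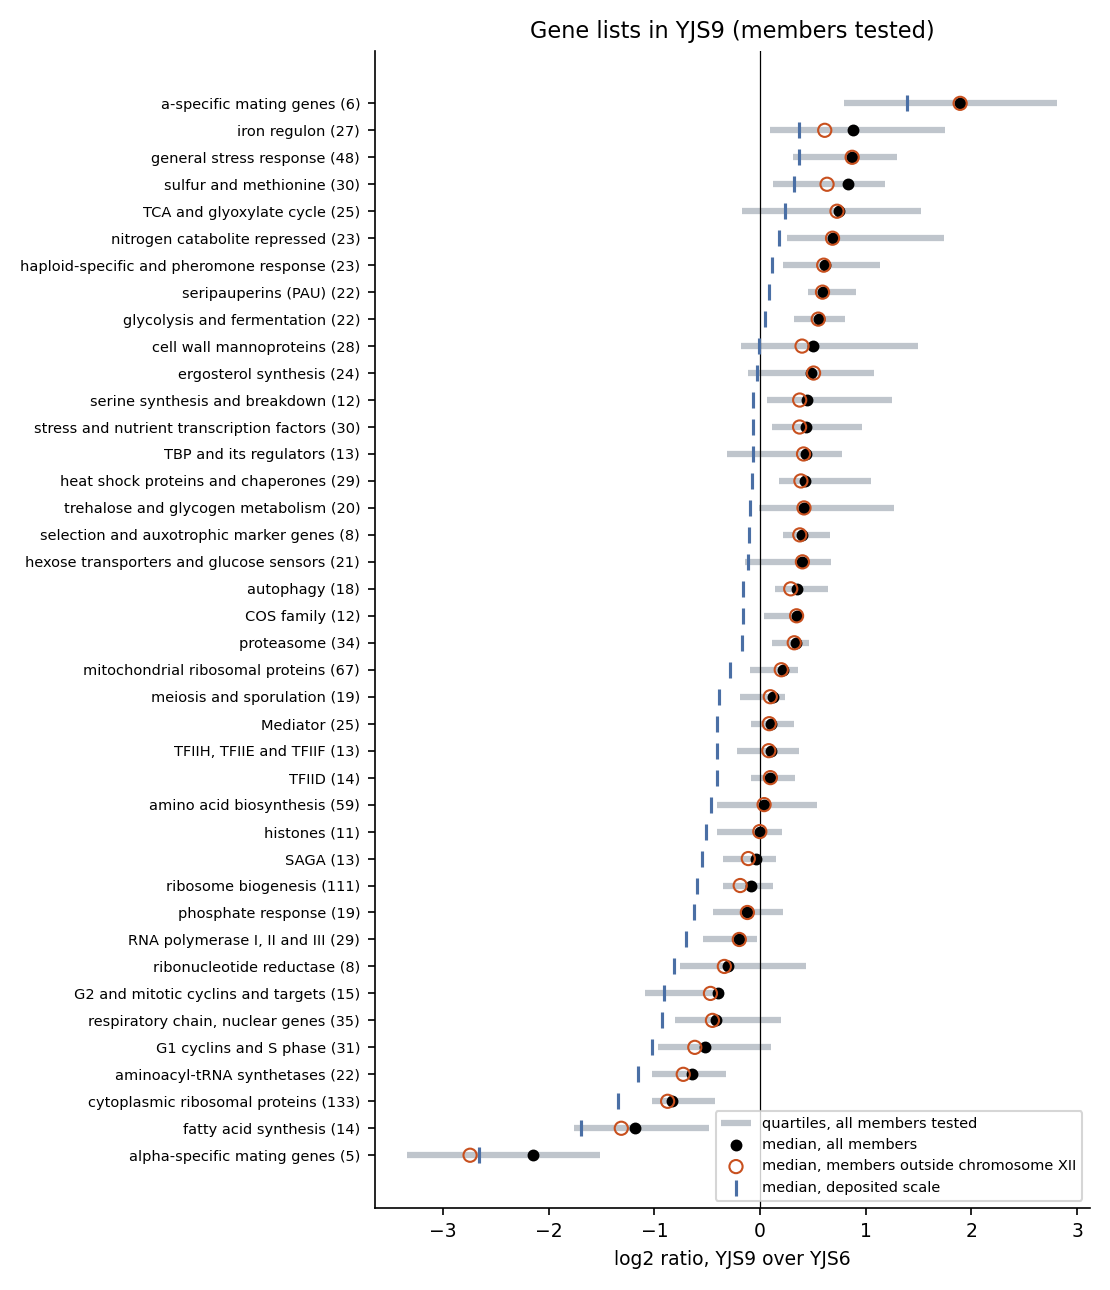
Effects in YJS9 as log2 ratio (horizontal axis) of the 40 gene lists (vertical axis, members tested in parentheses), with the quartiles as grey bars, the median as a black dot, the median of members outside chromosome XII as an open circle and the median on the deposited scale as a blue tick. Alpha-specific genes (-2.15) and fatty acid synthesis (-1.18) are at the low end, a-specific genes (1.89) at the high end, and the deposited medians lie lower throughout.

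Genes of fatty acid synthesis were lower. Of 14 tested genes of this list, 10 were lower and 0 higher by limma (0 higher at an unadjusted p under 0.05), with a median of -1.18 (-1.31 outside chromosome XII), against 23.2% lower among all genes. OLE1 (YGL055W), the only fatty acid desaturase of yeast, had -2.66 and -2.94 on the YJS9 arrays, against 0.35, 0.02, -0.02 and 0.46 on the self arrays, a 6.98-fold lower level (effect -2.80 ± 0.19, SE, n = 2, limma adjusted p = 8.15e-07). FAA4 (YMR246W), an acyl-CoA synthetase, had -3.08 and -3.24, with self values of 1.87, -0.08, 0.23 and 0.04. ACC1 (YNR016C), the acetyl-CoA carboxylase that makes the substrate of the pathway, had -2.54 on both arrays (effect -2.54 ± 0.46, SE, n = 2, limma adjusted p = 8.87e-04). The fatty acid synthase genes FAS1 and FAS2 had -1.77 and -1.94, and -1.28 and -1.57. The same 10 of 14 was the count of lower calls on the deposited scale.

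Of 133 cytoplasmic ribosomal protein genes, 90 were lower and 3 higher, with a median of -0.83, -0.77 on array 1 and -0.86 on array 2, against list medians from -0.24 to 0.20 on the self arrays. Outside chromosome XII, 87 of 115 were lower and 1 higher, with a median of -0.88. All tested genes had 23.2% lower and 20.9% higher (24.9% and 16.7% outside chromosome XII). RPL23A had -1.77 and -1.60 on the YJS9 arrays and -0.38 to -0.12 on the self arrays, RPS17A -1.23 and -1.76, and RPP2B -1.64 and -1.31. RPS14B, at 0.72 and 1.30, was the highest member, and the other higher ones, RPL22A and RPS30A, lie on chromosome XII. Many of these genes have a near-identical paralogue, and the values of such pairs are uncertain.

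Of 22 aminoacyl-tRNA synthetase genes, 15 were lower and 2 higher, with a median of -0.65 (15 of 20 lower and a median of -0.73 outside chromosome XII, which holds both higher members). VAS1, the valyl-tRNA synthetase, had -1.41 and -1.25 on the YJS9 arrays and -0.03 to 0.22 on the self arrays. Ribosome biogenesis genes had 22 lower and 17 higher of 111 (35.1% called, against 44.2% of all genes) and a median of -0.09. Of those 17 higher members 13 were on chromosome XII, and outside it 22 of 97 were lower, 4 higher and the median was -0.19. Of 29 subunits of RNA polymerases I, II and III, 12 were lower and 1 higher, against 23.2% lower and 20.9% higher of all genes. RPC11 of RNA polymerase III was the lowest, at -1.46 and -1.21.

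Genes of the G1 to S transition had 14 lower and 4 higher of 31 and a median of -0.52 (-0.62 outside chromosome XII). All tested genes had 23.2% lower and 20.9% higher (24.9% and 16.7% outside chromosome XII). CDC21, the thymidylate synthase, had -1.73 and -2.25 on the YJS9 arrays and -0.34 to 0.30 on the self arrays, the DNA polymerase gene POL1 -1.38 and -2.20, and the S phase cyclin CLB5 -1.25 and -1.47. SIC1 (YLR079W), the inhibitor of S phase cyclin kinases, was higher, with 2.34 and 2.16 against at most 0.04 on a self array, well above the median of its chromosome XII. CLN3, the upstream G1 cyclin, had 1.38 and 1.56. Among 15 genes of G2 and mitosis 7 were lower and 2 higher (7 lower and 1 higher of 14 outside chromosome XII), with the mitotic cyclin CLB1 at -1.27 and -1.42.

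Of 19 genes in the phosphate list 4 were higher and 5 lower (47.4% called, near the 44.2% of all genes). The higher ones include CTF19, at 1.05, which is a kinetochore gene and not a phosphate gene. PHO3 (YBR092C), an acid phosphatase, had -2.45 and -2.03 on the YJS9 arrays and -0.16 to 0.52 on the self arrays, and PHO89, a phosphate transporter, had 1.70 and 2.21, with self values from -1.14 to 1.62. Among 11 histone genes, HHO1, the linker histone, was lower (-1.22 and -1.67), HTZ1, the H2A variant, was lower (-0.76 and -0.57) and HHT2 was higher (0.65 and 0.52). The other histone genes did not pass, while 44.2% of all tested genes did. Among the lowest genes of no list, YNL040W had -3.03 and -3.34, ECM18 -2.53 and -2.70, LDO45 -2.15 and -2.33 and EUG1, a protein disulfide isomerase, -2.09 and -2.22. Among the highest, DSE4, a glucanase of daughter cell separation, had 2.47 and 2.84, MCH5, a riboflavin transporter, 2.84 and 2.54, and SNZ1, of vitamin B6 synthesis and with close paralogues, 2.82 and 2.54.

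Some calls rested mainly on array 1. MET12, a methylenetetrahydrofolate reductase gene, had 5.39 on array 1 and -0.07 on array 2. YGL262W had -4.59 and 0.37, BUD8, on chromosome XII, 4.97 and 0.51, STP22 4.82 and 0.41, and the lanosterol synthase gene ERG7 3.75 and -0.63. RFX1, a repressor of ribonucleotide reductase genes that lies on chromosome XII, had 4.77 and 1.55. For the first 5 of these, which had the widest gap among called genes, the effect is the mean of values that do not resemble each other. The limma call is not borne out by array 2, except in part for BUD8. On array 2 BUD8 lay above its self range of -0.10 to 0.16, but below the chromosome XII median of 0.72.

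Strain YKH101 was compared with the same YJS6 and so shares its reference and self arrays with YJS9. In the contrast YJS9 minus YKH101, limma called 135 of 5420 genes (2.49%), 96 higher (1.77%) and 39 lower (0.72%) in YJS9. The call count is unstable, since it was 7 without YJS9 array 1 and 1 on the deposited scale. GCN5 differed most, with 3.21 in YJS9 and -5.40 in YKH101 (difference 8.61 ± 0.26, SE, limma adjusted p = 2.68e-09). Of the 96 genes higher in YJS9, 62 lay on chromosome XII, and of the 39 lower ones 0, with a median difference of 0.59 for that chromosome and -0.06 for the rest.

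General stress genes gave 8 of the lower calls in YJS9 against YKH101, while 0 of 48 were higher by limma (0 at an unadjusted p under 0.05), with a median difference of -0.65. HSP26 was at 0.77 in YJS9 and 2.62 in YKH101, and the catalase gene CTT1 at 1.07 and 2.70. SIP18 was at -1.89 in YJS9 and 0.57 in YKH101, and MF(ALPHA)1 at -3.45 and -1.47. Of 5 alpha-specific genes 2 were lower in YJS9, whereas of 6 a-specific genes 0 passed, with a median difference of 0.007. AGA2 was at 3.55 and STE2 at 3.07 in YKH101. Ergosterol synthesis had 6 of 24 higher in YJS9 and 0 lower by limma (0 at an unadjusted p under 0.05), with a median difference of 0.57 (5 of 21 higher outside chromosome XII), and the iron regulon 4 of 27 higher (2 of 23 outside), among them SMF3 on chromosome XII, an iron transporter at 2.11 in YJS9 and 0.11 in YKH101. SLH1 was at 3.30 in YJS9 and 3.52 in YKH101, BDF1 at 2.39 and 1.87, and neither difference passed (limma adjusted p = 0.85 and 0.384).

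Against YJS7, 981 of 5420 genes (18.1%) were called, 495 higher (9.13%) and 486 lower (8.97%) in YJS9. The count was 534 without YJS9 array 1, 505 without array 2 and 41 on the deposited scale. GCN5 was at 3.21 in YJS9 and 2.48 in YJS7, a difference of 0.73 ± 0.26 (SE) that did not pass (limma adjusted p = 0.0756). SLH1, at 3.30 in YJS9 and 0.23 in YJS7, and BDF1, at 2.39 and 0.42, did. Of the higher genes 181 lay on chromosome XII and of the lower ones 10. CHA1 (3.84 in YJS9, 0.68 in YJS7), MEP2 (3.29 and 0.21) and 10 of 23 nitrogen catabolite repressed genes were higher in YJS9, as were 13 of 24 ergosterol, 12 of 30 sulfur and 10 of 27 iron genes. Outside chromosome XII these counts were 8 of 21 nitrogen, 11 of 21 ergosterol, 9 of 25 sulfur and 7 of 23 iron genes.

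Against YJS8 at 37 °C, 332 of 5390 genes (6.16%) were called, 185 higher (3.43%) and 147 lower (2.73%) in YJS9, and 108 of the higher and 3 of the lower ones lay on chromosome XII. The count was 115 without YJS9 array 1 and 12 on the deposited scale. YJS8 rests on 1 array here, because its replicate 2 held the same values as replicate 2 of YKH100 and both columns were left out, so its lone array is assumed to vary like the others. AGA2 was at 4.03 in YJS9 and 0.47 in YJS8, CHA1 at 3.84 and -0.27, and SIP18 at -1.89 and 3.56. GCN5 was at 3.21 in YJS9 and 0.50 in YJS8 (difference 2.71 ± 0.33, SE, limma adjusted p = 8.52e-04), whereas SLH1 was at 3.30 in YJS9 and 3.95 in YJS8, a difference of -0.65 ± 0.37 (SE) that did not pass (limma adjusted p = 0.344). Of 48 general stress genes 10 were lower and 1 higher in YJS9, the higher one on chromosome XII, and of 35 respiratory chain genes 7 were lower and 0 higher by limma (1 at an unadjusted p under 0.05).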

How the data were processed

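RNA of YJS9 and YJS6 was hybridised to 2-colour yeast arrays of 6400 spots, scanned with a GenePix instrument per the labels' protocols. The deposited values are log2 ratios per spot from the authors, and no source used here gives their normalization. Of the spots, 5578 carried 1 gene, and spots of a gene were averaged after each array was centred on its median. RefSeq gene tables of assembly R64 gave names and gene order. Effects were fitted with limma 3.58.1 (R 4.3.3) on 21 arrays, with 1 term for each strain and temperature and a dye term for each gene, over genes with values on both YJS9 arrays and on at least 18 arrays, and p-values were adjusted by Benjamini-Hochberg. A column that held the same values under 2 labels (YKH100 replicate 2 and YJS8 replicate 2) was left out. Tested on simulated data of 5420 genes for YJS9 against YJS6, the fit called 19.8% of changes of 0.5, 79.6% of 1 and 93.8% of 2 (absolute log2). Only 81, 54 and 65 genes were changed by these sizes, without other strain effects and with noise independent between genes. The real comparison called 44.2% of genes, so these rates may not hold for it.

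The genes named are 6 fixed ones (GCN5, SPT3, TAF1, SLH1, BDF1, SPT15), the 12 highest and 12 lowest called genes with similar values on both arrays (also outside chromosome XII), the 3 strongest called members of each list with 1 sign on both arrays, the 5 called genes on which the arrays differed most, and the 5 highest and 5 lowest called differences from each other strain. Others were chosen after their values were seen. The members and gene lists were chosen with earlier results of these data known. Alternatives covered scale, dye term, arrays in the fit, filters and each YJS9 array left out. Promoter sequences were not analysed here. Tables and figures were made with Python 3.11.15, pandas 2.3.3, numpy 2.4.6, scipy 1.17.1 and matplotlib 3.10.9.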

Additional observations from a re-analysis of the deposited data

Results flagged for a closer look

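Of 28 named genes examined over the 4 self arrays, 2 had 1 array far from the others, where chance alone gives about 1 in 20 groups. FAA4 was at 1.87 on self array 1, while the others ran from -0.08 to 0.23. EUG1 was at -0.35 on self array 2, while the others ran from -0.09 to -0.07.

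The contrasts between strains tested the difference itself with limma, and the strains share YJS6 as their reference. They called 135 genes in YJS9 minus YKH101, 981 in YJS9 minus YJS7 and 332 in YJS9 minus YJS8. In YJS9 minus YKH101 the lowest differences were SIP18 at -2.46, MF(ALPHA)1 at -1.98, HSP26 at -1.85, CTT1 at -1.63 and LYS9 at -1.62, and LYS9 was at 0.07 in YJS9 itself without array 1. The highest were GCN5 at 8.61, SMF3 at 2.0, YMR085W at 1.90, RFU1 at 1.87 and CIS1 at 1.85.

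In YJS9 minus YJS7 the lowest differences were MF(ALPHA)1 at -2.81, SIP18 at -2.44, HO at -2.22, SPG1, a stationary phase gene, at -2.12 and the phosphate transporter gene PHO84 at -2.02. The highest were PAU7 at 7.16, CHA1 at 3.16, MEP2 and SLH1 at 3.08 each and CIS1 at 2.97. PAU7 belongs to the near-identical seripauperins and was at 0.79 in YJS9 and -6.37 in YJS7. SPG1 was at 0.02 in YJS9 and 2.14 in YJS7, so the differences of PAU7 and SPG1 rest mainly on YJS7.

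In YJS9 minus YJS8, where YJS8 rests on 1 array, the lowest differences were SIP18 at -5.45, YOR342C at -4.53, ATG11 at -4.19, MRX18 at -3.79 and KAP123 at -3.73. ATG11 was at 4.45 in YJS8, and the YJS6 self arrays 1 and 4 had 2.55 and 4.04, so values of this size also occur with YJS6 in both channels. The highest were URA4, of pyrimidine synthesis, at 7.50, CHA1 at 4.11, AGA2 at 3.57, PEX7 at 3.27 and YOL014W at 2.99. URA4 was at 0.88 in YJS9 and -6.62 in YJS8, and PEX7 at 0.01 and -3.26. MRX18 was at 0.22 in YJS9 and 4.0 in YJS8, KAP123 at -0.93 and 2.80, and YOR342C at -0.91 and 3.62. For URA4, PEX7, MRX18, KAP123 and YOR342C the difference thus rests mainly on the lone YJS8 array.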

How the results depend on the processing

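The effects rest on 2 YJS9 arrays, and array 1 and array 2 differ in dye as well as in replicate number. The p-values also rest on a spread pooled over 21 arrays, most of them of other strains, with 9 residual degrees of freedom. No paired analysis was possible because in every group the replicate number goes with the dye, so a replicate block cannot be told apart from the dye term. Against the 2393 calls in YJS9 (1135 higher, 1258 lower), the deposited scale gave 1420 (190 higher), scaling the arrays to 1 spread 1237 (613 higher, 624 lower), and an added minimum absolute log2 of 1 gave 820 (448 higher, 372 lower). Leaving out 1 YJS9 array gave 1465 to 1484 calls, 712 to 740 higher and 744 to 753 lower. For YJS9 minus YKH101 (135 calls), the deposited scale, the fit of only arrays against YJS6 at 37 °C and scaling to 1 spread gave 1 call each, no dye term 71, repeated columns kept 65, and leaving out 1 YJS9 array 7 to 151. For YJS9 minus YJS7 (981), the deposited scale gave 41, scaling 163 and leaving out 1 array 505 to 534. For YJS9 minus YJS8 (332), these gave 12, 38 and 115 to 309, and the fit of only arrays against YJS6 gave 26. The causes of these changes were not tested.

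Other alternatives were chosen after seeing the data: centring on genes outside chromosome XII, setting chromosome XII to the level of the rest, and leaving its genes out. Setting it to the rest gave 39 calls for YJS9 minus YKH101 and 185 for YJS9 minus YJS8, and leaving it out gave 40 and 162.

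Of 151 named genes and 40 lists, these effects changed sign. On the deposited scale, ATG11 was at -0.25, COS1 at -0.083, COS8 at -0.12, MRX18 at -0.29, PEX7 and SPG1 at -0.49 each, SPT15 at -0.45 and TAF1 at -0.35. With 1 YJS9 array left out, ERG7 ran from -0.47 to 3.58, LYS9 from -0.38 to 0.068, MRX18 from -0.084 to 0.52, PEX7 from -0.076 to 0.10, SPG1 from -0.22 to 0.26, SPT15 from -0.096 to 0.21, SPT3 from -0.19 to 0.11 and YGL262W from -4.57 to 0.35. Deposited list medians were -0.16 for the COS family and for autophagy, -0.40 for Mediator, -0.072 for TBP and its regulators, -0.071 for stress and nutrient transcription factors, -0.41 for TFIID and for TFIIH, TFIIE and TFIIF, -0.47 for amino acid biosynthesis, -0.0090 for cell wall mannoproteins, -0.026 for ergosterol synthesis, -0.079 for heat shock proteins, -0.11 for hexose transporters and for marker genes, -0.39 for meiosis, -0.29 for mitochondrial ribosomal proteins, -0.17 for the proteasome, -0.064 for serine genes and -0.093 for trehalose and glycogen metabolism. Centred outside chromosome XII, SPT3 and the SAGA list were at 0.032 each and histones at 0.071. With 1 YJS9 array left out, list medians ran from -0.17 to 0.25 for amino acid biosynthesis, from -0.0089 to 0.15 for histones and from -0.026 to 0.20 for meiosis.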
